A study of Mus musculus with 3143 samples.

Results

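The nuclear-encoded genes of the mitochondrial respiratory chain and ATP synthase were followed across the cell types of the mouse glomerular fraction. They were chosen by symbol alone: the Ndufa, Ndufb, Ndufc, Ndufs and Ndufv genes of complex I, Sdha to Sdhd of complex II, the Uqcr genes of complex III, the Cox4 to Cox8 genes of complex IV and the Atp5 genes of ATP synthase, without pseudogenes. This gave 85 of the 46517 genes in the table: 36 of complex I, 4 of complex II, 8 of complex III, 20 of complex IV (with Ndufa4 and Ndufa4l2, whose products belong to or replace a part of that complex) and 17 of ATP synthase. Atp5s and Atp5sl match by their symbol but are not classic subunits of ATP synthase. The study sorted single kidney cells of adult C57BL/6 mice, labelled IgAN (for IgA nephropathy) or Control, after the glomerular fraction had been dissociated with collagenase IV, pronase E and DNase I and stained with CellTracker dye. Both groups share the strain and the preparation, and how IgAN was brought about is not given in the sources used here. Each cell was sequenced by Smart-seq2, a full-length method without molecular identifiers. The labels name no animals, and none of the 10 plates mixed IgAN with Control. Each group therefore counts as 1 sample, no test was made, and plate and group cannot be told apart. The spread between plates is given as a description. Plates may share animals, so it is not a replicate error. The 95% intervals (exact Poisson for reads, Clopper-Pearson for shares of cells) cover counting error only.

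The respiratory chain passes electrons from NADH (complex I) or succinate (complex II) through complexes III and IV to oxygen, and the proton gradient so built drives ATP synthase. A small set of core subunits is encoded in the mitochondrial genome, and all other subunits are nuclear genes whose RNAs are translated in the cytosol. Several complex IV subunits exist as isoforms with tissue preferences. In the kidney, tubule cells are rich in mitochondria because sodium transport consumes much ATP, whereas glomerular cells hold fewer.

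IgAN gave 1798 cells on 6 plates and Control 1345 cells on 4, with at least 50365 reads per cell and group medians of 231222 and 241543. Cells were grouped into 23 clusters without the 85 genes, and classes were named "-like" from marker genes: 1612 endothelial-, 296 macrophage or dendritic-, 238 proximal tubule-, 221 T or NK cell-, 185 podocyte-, 160 mesangial-, 143 B or plasma cell-, 117 distal tubule or collecting duct-, 72 parietal epithelial-, 33 smooth muscle or renin cell- and 20 neutrophil-like cells. Reads counted for nuclear copies of mitochondrial genes set the groups apart. Whether reads were assigned to genes alike in both groups was not tested. The copy Gm13340 held a median of 56.8% of the reads of Gm13340 plus mt-Co1 in IgAN cells and 0% in Control cells. Medians of this share by class ran from 54.7% to 58.4% in IgAN and from 0% to 0.52% in Control. By this share, 22 cells of plate 317 (Control), 18 of plate 318 (IgAN) and 1 of plate 322 (IgAN) went against their group's labels, with 30% as the limit, at 32.1% to 63.5% in the Control cells and 2.31% to 14.8% in the IgAN cells. Of the 41 cells, 14 of IgAN and 7 of Control were endothelial-like, and none was podocyte- or parietal epithelial-like. Levels without them are given with the classes below.

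The 85 genes held 1.66% of all reads. Of them, 75 had a read in 50% or more of the 3143 cells and 77 in 10% or more. The highest levels per exon length (reads per kilobase per 1e6 reads, RPKM, over all cells) belonged to the complex IV subunits Cox6a1 (693), Cox8a (668), Cox4i1 (479) and Cox6b1 (439), followed by Ndufa2 of complex I (293). At the low end, Cox8b and Cox8c had 0 reads, and Cox7b2, named after its values were seen, had reads in 9 cells. The catalytic subunit Atp5b had 279 RPKM, the flavoprotein Sdha of complex II 68.9, the NADH-binding Ndufv1 of complex I 80.8 and the largest complex I subunit Ndufs1 14.2. Of the 85 genes, 28 share sequence with another gene of the table, and for 11 of these the other gene held at least 10% as many reads, so their counts are less certain.

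Promoter sequence is shown for Cox6a1, the member with the highest level per length, and for Cox7a1 and Cox7a2, isoforms of 1 subunit that differed between cell types below. The windows are the 250 bases before the RefSeq start (GRCm38.p6) on the gene's own strand, 5′ to 3′, and capitals mark letters that match a searched motif on either strand. They lie at chr5:115348959-115349208 (minus strand) for Cox6a1, chr9:79759854-79760103 (minus strand) for Cox7a2 and chr7:30183921-30184170 (plus strand) for Cox7a1.
Cox6a1: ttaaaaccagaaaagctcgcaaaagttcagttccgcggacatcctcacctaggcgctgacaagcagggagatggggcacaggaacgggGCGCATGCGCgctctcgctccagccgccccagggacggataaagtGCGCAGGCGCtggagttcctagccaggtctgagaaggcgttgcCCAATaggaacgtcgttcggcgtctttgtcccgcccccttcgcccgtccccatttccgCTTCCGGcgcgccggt
Cox7a2: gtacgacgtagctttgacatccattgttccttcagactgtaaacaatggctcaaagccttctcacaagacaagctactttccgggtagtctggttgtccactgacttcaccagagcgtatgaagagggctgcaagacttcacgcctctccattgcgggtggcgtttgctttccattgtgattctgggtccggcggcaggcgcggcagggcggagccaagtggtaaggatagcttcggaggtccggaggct
Cox7a1: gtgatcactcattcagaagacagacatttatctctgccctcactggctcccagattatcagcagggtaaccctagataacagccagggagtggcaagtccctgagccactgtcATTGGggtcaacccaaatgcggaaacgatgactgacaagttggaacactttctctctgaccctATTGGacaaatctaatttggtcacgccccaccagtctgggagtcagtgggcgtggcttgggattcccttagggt
The Cox6a1 window held NRF1 letters, a CCAAT box and an ETS match, the Cox7a1 window held CCAAT letters only, and the Cox7a2 window held none of the motifs. RefSeq windows of 300 bases (250 before to 50 after the start) were matched for 70 of the 85 genes, 3 of them under another symbol. The NRF1 motif, named for a regulator of mitochondrial genes, was found in 22.9% of these against 4.78% of all 27025 windows, and the overlapping core GCATGCGC in 14.3% against 2.80%. The ETS motif CCGGAAG, bound by GABPA, was found in 21.4% against 9.12%, the YY1 motif AAGATGGCG in 10.0% against 1.49% and the ERR half-site AAGGTCA in 11.4% against 4.66%. Shares lay closer for the CCAAT box (44.3% against 37.9%), the HIF motif ACGTG (27.1% against 19.7%), the TATAAA box (10.0% against 14.2%) and the RBPJ motif GTGGGAA (4.29% against 6.39%). The CArG box (0% against 1.57%) and the MEF2 motif (0% against 0.163%) were in no member window. Both strands were searched, the member windows had a median GC content of 57.3% against 52.7%, and a match describes letters only.

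Summed over the 85 genes, the level was highest in tubule cells. Counts per 1e6 reads (CPM), pooled over both groups, were 49059 in distal tubule or collecting duct-like and 36364 in proximal tubule-like cells, against 20058 in smooth muscle or renin cell-, 16640 in podocyte-, 16408 in parietal epithelial-, 15302 in T or NK cell-, 14961 in mesangial-, 13576 in endothelial-, 13234 in macrophage or dendritic-, 13072 in B or plasma cell- and 4768 in neutrophil-like cells. On plates with at least 10 cells of a class, the lowest tubule value (24172 CPM, proximal tubule-like, plate 325) lay above the highest value of any other class (19512 CPM, T or NK cell-like, plate 315). The classes from podocyte- to B or plasma cell-like overlapped from plate to plate, so their order is not resolved, and smooth muscle or renin cell- and neutrophil-like cells had no plate with 10 cells. Without the cells whose Gm13340 share went against their group, the Control sum was 54273 CPM in distal tubule or collecting duct-like cells (54000 with them) and 42331 CPM in proximal tubule-like cells (42342 with them). Because levels are shares of each cell's reads, they do not give the amount of RNA per cell.

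**Figure D1:**
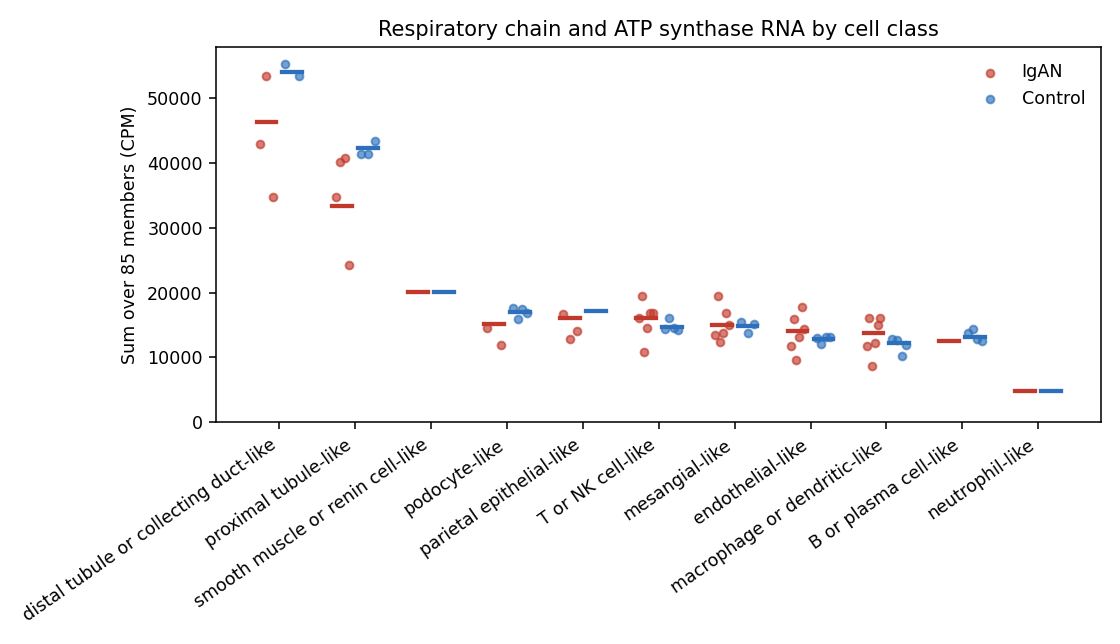
Summed level of the 85 genes (CPM, linear axis from 0) in each cell class; lines are IgAN (red) and Control (blue) cells pooled, and points are plates with at least 10 cells of the class. The tubule points, from 24172 CPM upward, lie above all points of the other classes.

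The excess in tubule cells was shared by nearly all members. Of 79 genes compared with endothelial-like cells, 76 were at least 2-fold higher in distal tubule or collecting duct-like cells, against 22.1% of all genes, with a median log2 ratio of 1.94 against -0.18 for all genes. In proximal tubule-like cells 62 of 79 were, against 22.4% of all genes, with a median of 1.47 against -0.19. The 5 complexes stood above the endothelial level in distal tubule or collecting duct-like cells, from 3.42-fold in complex IV to 3.80-fold in ATP synthase. In proximal tubule-like cells complex II stood at 3.43-fold and complex IV at 2.37-fold. The subunits of the mitochondrial genome were 3.41- and 2.27-fold higher, and the citrate cycle genes, which supply NADH and succinate, 3.74- and 3.14-fold. Assembly factors, which build the complexes, were 1.71- and 1.58-fold higher. Among classes with at least 40 cells, distal tubule or collecting duct-like cells had the highest pooled level for 74 of the 85 genes. The exceptions included Ndufa4l2 and Cox4i2. Endothelial markers exceeded 10% of their endothelial-like median in 65 of 153 IgAN proximal tubule-like cells. The same held for 32 of 71 IgAN cells of the distal class. In Control alone, complex II was higher in proximal tubule-like cells (4.69-fold) than in the distal class (4.38-fold). The other complexes were higher in the distal class. The count of 74 was not repeated without the cells rich in endothelial markers.

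Complex IV isoforms set the smooth muscle or renin cell-like cells apart. Ndufa4l2, a relative of Ndufa4 known to rise under low oxygen (chromosome 10, 127514967 to 127517154, plus strand, GRCm38), reached 910 CPM (891 to 929) in these 33 cells, and made up 83.6% of Ndufa4 plus Ndufa4l2 per length. In Control, its level in a cell was 586 at the lowest, 1253 at the median and 2256 CPM at the highest of 11 cells; in IgAN the 22 cells ran from 0 through a median of 660 to 1615 CPM. Cox4i2, the alternative form of the regulatory subunit Cox4i1 (chromosome 2, 152754173 to 152765037, plus strand), had 424 CPM (412 to 437) and 54.7% of its pair. Reads of both genes were found in 29 of the 33 cells. Pooled levels were lower in IgAN than in Control for Ndufa4l2 (709 and 1315 CPM) and Cox4i2 (335 and 604 CPM), while the ranges of the cells overlapped and no plate held 10 of them. Without the 1 Control cell whose Gm13340 share went against its group, Control stood at 1348 and 644 CPM. All 33 cells also carried markers of another class, at 10% or more of that class's median. The same held for 106 of 109 IgAN and 42 of 51 Control mesangial-like cells. The part of these other markers in the isoform levels was not tested.

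In endothelial-like cells, which give the background, Ndufa4l2 had 0.848 CPM with a read in 190 of 1612 cells (11.8%) at a median of 243692 reads per cell, or 2.85% of cells when each was thinned to 50000 reads. Its share of the pair was 0.454% there, 0.218% in podocyte-like and 52.9% in mesangial-like cells. Cox4i2 had lower shares, with 5.60% of its pair in mesangial-, 3.51% in parietal epithelial- and 0.0955% in endothelial-like cells.

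**Figure D2:**
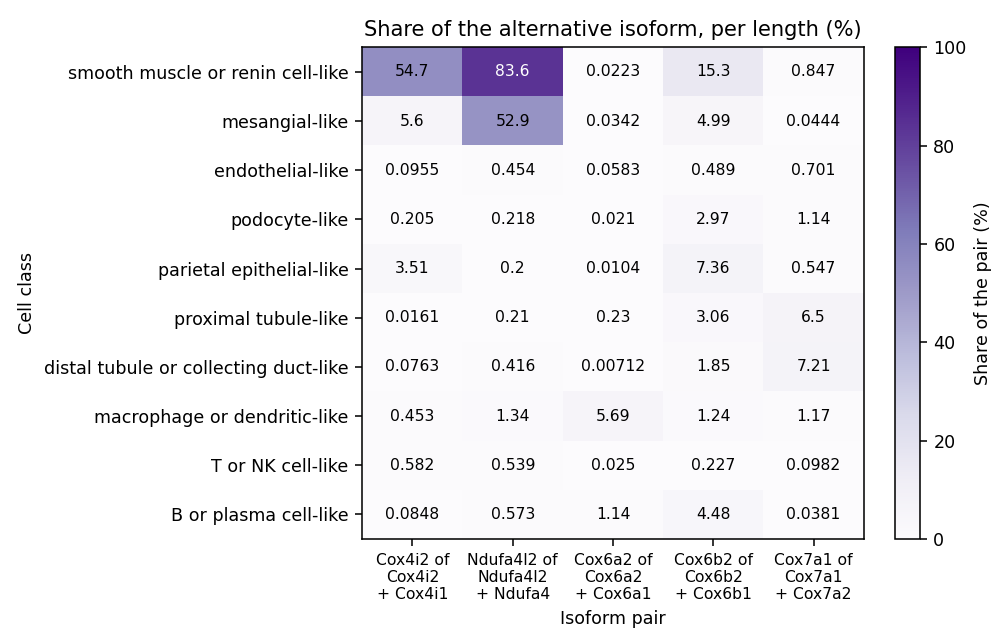
Share of the alternative isoform in its pair, per exon length (%), in 10 cell classes with both groups pooled; darker cells are higher shares. Ndufa4l2 and Cox4i2 exceed 50% of their pair in smooth muscle or renin cell-like cells; Ndufa4l2 also does in mesangial-like cells.

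Within mesangial-like cells, Ndufa4l2 was lower in IgAN when the cells were pooled. It had 142 CPM (138 to 147) in the 109 IgAN cells and 292 CPM (283 to 301) in the 51 Control cells, a log2 difference (IgAN minus Control, 1 CPM added) of -1.03. The IgAN plates 313, 315, 316, 318, 322 and 325 stood at 106, 75.0, 131, 167, 300 and 88.8 CPM, and the Control plates 314, 317 and 326 at 246, 247 and 370 CPM. Plate 322 lay among the Control plates, so the groups overlapped. A read was found in 43 of 109 IgAN cells (39.4%, 30.2 to 49.3) and 36 of 51 Control cells (70.6%, 56.2 to 82.5). By plate this share was 15.4% to 54.5% in IgAN and 68.8% to 75.0% in Control, with no overlap among plates with at least 10 cells. At 50000 reads per cell it was 35.8% and 66.7%. How many other genes have shares of cells that do not overlap was not computed. Plate 321 (Control) held 4 mesangial-like cells, with reads in 50.0% of them and 403 CPM.

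Its share of the pair with Ndufa4 was 44.1% in IgAN (plates 23.8% to 56.4%) and 65.4% in Control (56.8% to 74.1%). These plates did not overlap, but the nearest ones stood at 56.4% and 56.8%. Ndufa4 itself overlapped, at 228 and 195 CPM. Cox4i2 was found in 11 of 109 and 11 of 51 cells, at 3.81 and 52.3 CPM (log2 -3.47), and its plates overlapped (0 to 10.7 and 6.53 to 108 CPM). Leaving out each plate in turn kept Ndufa4l2 lower in IgAN, with log2 differences from -1.33 (without plate 322) to -0.86 (without plate 326), and without the 2 Control cells whose Gm13340 share went against their group it was at 288 CPM, with reads in 69.4% of cells. The 8 smooth muscle or renin cell markers added up to 1596 CPM in the IgAN mesangial-like cells and 1452 in the Control ones, the 10 mesangial markers to 14678 and 16426, the 10 endothelial markers to 2510 and 1731, and the 8 parietal epithelial markers to 1863 and 622. The part of these other markers in the result was not tested.

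**Figure D3:**
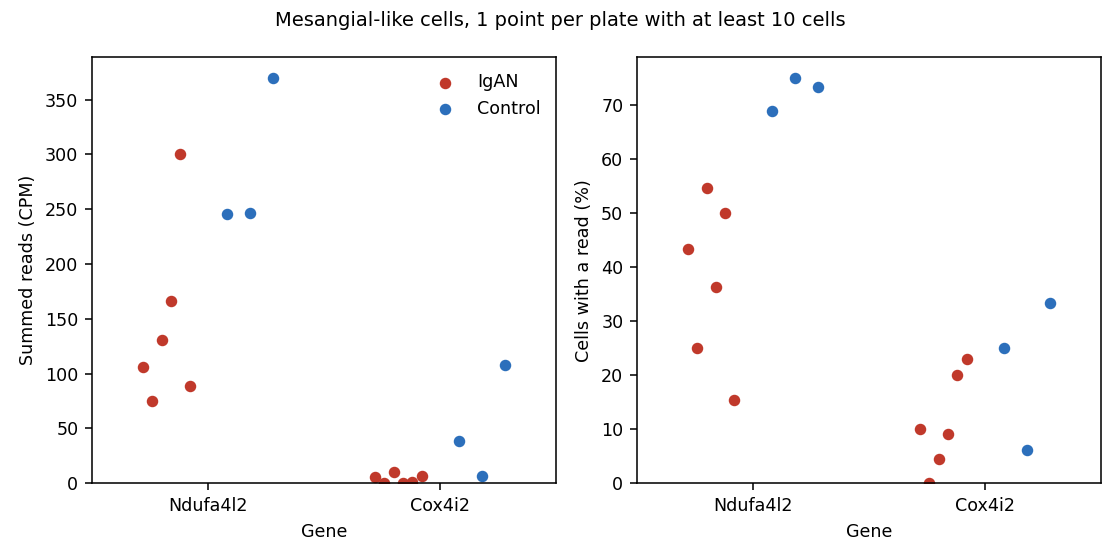
Ndufa4l2 and Cox4i2 in mesangial-like cells, as summed reads (left, CPM) and as the share of cells with a read (right, %); each point is 1 plate with at least 10 such cells, red for IgAN and blue for Control. For Ndufa4l2 the shares of cells do not overlap (15.4% to 54.5% and 68.8% to 75.0%), whereas the CPM values do.

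Other isoforms were tied to other cell types at low levels. Cox7a1, the heart and skeletal muscle form of a complex IV subunit, was at 30.3 CPM in distal tubule or collecting duct-like cells (26 of 117 cells) and 17.9 CPM in proximal tubule-like cells (55 of 238), where it made up 7.21% and 6.50% of Cox7a1 plus Cox7a2 per length. In the 8 other classes of the share plot its share was 1.17% or less. Cox6a2, the muscle form of Cox6a1, reached 22.2 CPM in macrophage or dendritic-like cells but came from 15 of 296 cells, 9 of them in the cluster led by Cd209a. Cox6b2, known from testis, had 66.0 CPM in smooth muscle or renin cell-like cells, 37.4 in parietal epithelial- and 30.9 in proximal tubule-like cells, against 2.03 in endothelial-like cells. Its reads in smooth muscle or renin cell-like cells came from IgAN (98.5 CPM, 14 of 22 cells), with 1 read in the 11 Control cells.

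Atp5g1, Atp5g2 and Atp5g3 encode the same mature c subunit of ATP synthase with different import sequences. Per length, Atp5g2 made up 41.8% of the 3 in endothelial-like cells (plates 38.6% to 47.2%) and 20.1% in proximal tubule-like cells (11.7% to 25.3%). Atp5g3 stood at 45.1% (39.2% to 48.6%) and 61.1% (55.7% to 65.0%), so the plates of these 2 classes did not overlap for either gene. Mesangial-like cells were close to the tubule classes in Atp5g3 (64.1%), with plates from 51.0% to 71.4%.

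IgAN was then compared with Control inside the main classes. Genes counted as measured if either group gave them 10 CPM or more with reads in 10% or more of its cells. The size rule asked for a log2 difference of 1 or more in either direction and for plates that did not overlap between the groups, over plates holding 10 or more such cells. In endothelial-like cells the members were slightly higher in IgAN as a group, but the plates overlapped widely. The summed level was 14101 CPM in IgAN and 12773 in Control; IgAN plates 313, 315, 316, 318, 322 and 325 stood at 11834, 15912, 9602, 13126, 17763 and 14393 CPM, and Control plates 314, 317, 321 and 326 at 13006, 12002, 13119 and 13185 CPM. IgAN plates thus lay both above and below all Control plates. Without the 14 and 7 cells whose Gm13340 share went against their group, the sums were 14100 and 12781 CPM and the median below was 0.17. The difference was positive for 67 of 76 measured members with a median of 0.18 (0.01 over all measured genes), and 0 of 76 met the size rule, which 1.48% of all measured genes met.

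The largest endothelial differences were in complex I subunits: Ndufb4 (45.4 and 29.5 CPM, log2 0.61), Ndufa5 (0.57) and Ndufs4 (0.56). On the other side were the membrane anchor Sdhd of complex II (112 and 140 CPM, log2 -0.31), Ndufv3 (-0.19) and Atp5d, a subunit of the ATP synthase central stalk (-0.18). All 6 had overlapping plates. The endothelial-like cells of the groups lay in different clusters: cluster 1 held 23 IgAN and 379 Control cells, cluster 2 278 and 4, and cluster 3 239 and 29. Summed member levels ran from 11119 CPM (cluster 0, IgAN) to 16740 CPM (cluster 3, IgAN), so this difference in clusters cannot be told apart from the group. Within single clusters, settings added after the data were seen, the member median was 0.21 in cluster 5 (109 IgAN and 110 Control cells, all genes -0.02) and -0.12 in cluster 0 (343 and 87 cells, all genes -0.06). The same IgAN plate was low elsewhere: plate 316 had the lowest summed member level of the 6 IgAN plates in endothelial-, mesangial-, macrophage or dendritic- and T or NK cell-like cells, 4 of the 4 classes that all 6 plates filled.

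**Figure D4:**
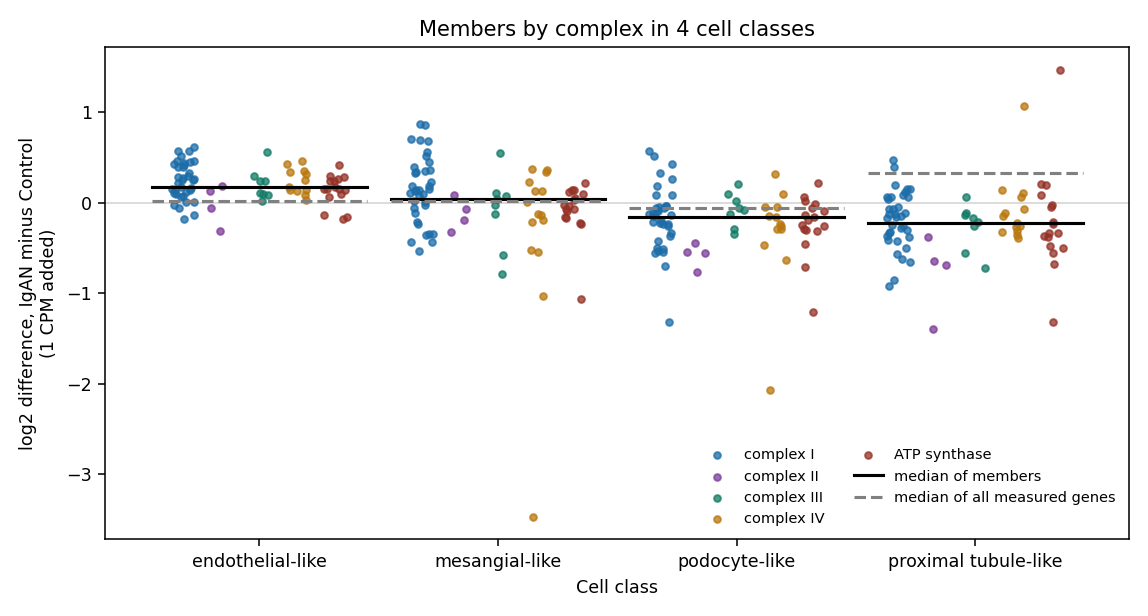
Log2 difference (IgAN minus Control, 1 CPM added) of each measured member in 4 cell classes, coloured by complex; black lines are the medians of the members and dashed grey lines the medians of all measured genes. The member median lies at 0.18 in endothelial-like and at -0.22 in proximal tubule-like cells, where that of all genes is 0.33.

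Mesangial-like cells showed no common shift of the members. The summed level was 15004 CPM in IgAN (plates 12397 to 19421) and 14875 CPM in Control (13784 to 15403), and the differences were positive for 44 and negative for 36 of 80 members, with a median of 0.03 against 0.02 over all genes. None of the 80 met the size rule, against 2.66% of all measured genes. The complex I subunits Ndufa12 (100 and 54.3 CPM, log2 0.87), Ndufa8 (0.85) and Ndufs5 (0.70) had the largest positive differences, with overlapping plates. Below Cox4i2, the largest negative difference was that of Atp5sl (15.1 and 32.7 CPM, log2 -1.06), a protein of complex I assembly, and it alone met the size rule when the 2 cells whose Gm13340 share went against their group were left out.

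In podocyte-like cells most members were lower in IgAN. The summed level was 15078 CPM in IgAN, with plates 313 and 316 at 14556 and 11918, and 17020 CPM in Control, with plates 314, 317, 321 and 326 at 17647, 15938, 17511 and 16904. The 2 IgAN plates lay below the 4 Control plates; they hold 25 of the 39 IgAN cells, and the other plates had too few cells to be counted. The difference was negative for 62 of 78 members with a median of -0.16, against -0.06 over all genes. All plates of IgAN lay below those of Control for 22 of 78 members (15.1% of all genes), and 1 of 78 met the size rule toward lower values (6.35% of all genes). With plates 321 to 326 only, which hold 6 IgAN podocyte-like cells and no IgAN plate with 10 of them, the member median was 0.07 and that of all genes -0.63.

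The member past the rule was Ndufv1, the complex I subunit that takes electrons from NADH (chromosome 19, 4007384 to 4012806, minus strand). It had 158 and 116 CPM on the IgAN plates and 214, 241, 396 and 313 CPM on the Control plates 314, 317, 321 and 326, with pooled levels of 111 and 279 CPM and a log2 difference of -1.32. Leaving out any plate gave -1.67 to -1.07, and the rule was still met; with plates 313 to 318 only it was not. The 4 subunits of complex II were all lower, with a median of -0.55, among them the iron-sulfur subunit Sdhb (139 and 204 CPM, plates apart) and Sdha (149 and 255 CPM, plates overlapping). Cox6b2 (3.45 and 17.7 CPM, log2 -2.07) and Atp5sl (-1.21) had larger differences with overlapping plates, as had Ndufs6 (0.57), Ndufa10 (0.52) and Ndufs3 (0.43) on the positive side. Cox6b2 counted as measured through Control only, so the direction of its difference followed from the filter and the size is less certain. Cox7a2l was lower on both IgAN plates (125 and 121 CPM) than on the Control plates (158 to 259 CPM), while the pooled IgAN level, which includes cells of small plates, was higher (229 and 184 CPM).

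Among related genes, podocyte-like IgAN cells were lower past the size rule in Dlst, a citrate cycle enzyme subunit (36.4 and 143 CPM, log2 -1.95), in Etfa, an electron carrier from fat oxidation (-1.01), in Ppargc1a, the coactivator known for driving mitochondrial biogenesis (0.652 and 11.4 CPM, log2 -2.91), and in Nrf1, the factor that binds the NRF1 motif (5.31 and 23.9 CPM, log2 -1.98). They were higher in Pprc1, a relative of Ppargc1a (131 and 37.7 CPM, log2 1.77), the transcription factor Tfb2m (1.10) and the complex III assembly factor Ttc19 (1.54). Over all genes, 3.73% were higher past the rule. Ppargc1a and Nrf1 counted as measured through Control only, Ppargc1a narrowly. Their IgAN levels lay under the CPM limit for measured genes. The direction of these differences followed from this filter, and their size is less certain. Of 16 citrate cycle genes 1 was lower past the rule and 0 higher; of 9 measured biogenesis regulators 2 were lower and 2 higher, and of 40 measured assembly factors 0 were lower and 1 higher, so these lists had no common direction. Podocyte markers added up to 24903 CPM (IgAN) and 26162 CPM (Control), endothelial markers to 2970 and 3798, smooth muscle or renin cell markers to 1168 and 771, and parietal epithelial markers to 700 and 370. Their part in these differences was not tested.

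In proximal tubule-like cells the members were lower in IgAN with all cells pooled. The summed level was 33366 CPM in IgAN, with plates 315, 316, 318 and 325 at 34778, 40137, 40783 and 24172, and 42342 CPM in Control, with plates 314, 317 and 321 at 41323, 41346 and 43425. These IgAN plates all lay below the Control plates, 2 of them narrowly, while IgAN plate 322, with 6 cells, stood at 44191 CPM. The difference was negative for 59 of 79 members with a median of -0.22, while all measured genes had a median of 0.33. Endothelial markers differed between the groups as well. They summed to 4914 CPM in IgAN and 229 CPM in Control proximal tubule-like cells, at 5255, 211, 907 and 8387 CPM on the 4 IgAN plates, and the 2 plates with the most had the lowest member levels.

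In 65 of 153 IgAN and 0 of 85 Control cells the endothelial markers exceeded 10% of their median in endothelial-like cells. The other 88 IgAN cells had a summed member level of 43455 CPM, against 21719 CPM in the 65 cells and 42342 CPM in Control. Over these 88 cells the difference was positive for 58 of 79 members with a median of 0.13 (0.12 over all genes). This split was chosen after the differences were seen, and it took out cells of IgAN only. The part of the endothelial markers in the difference was not tested. In distal tubule or collecting duct-like cells the summed level was 46212 CPM in IgAN and 54000 CPM in Control over all cells, and 57215 (39 cells) and 55026 CPM (45 cells) in cells low in endothelial markers.

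Core subunits of the complexes were also compared over all cells and over the cells low in endothelial markers. Atp5b and Atp5a1, which form the catalytic head of ATP synthase, had 2347 and 1764 CPM in all IgAN proximal tubule-like cells and 3451 and 2823 CPM in Control. In the IgAN cells low in endothelial markers they had 3084 and 2454 CPM. Uqcrc1, a core subunit of complex III, stood at 829 CPM in IgAN (plates 493 to 1207) and 1364 CPM in Control (1218 to 1431), and at 1109 CPM (974 to 1280) in the low cells. Cox4i1 and the complex I subunit Ndufs1 were at 1196 and 316 CPM in all IgAN cells and 1565 and 441 CPM in the low cells, against 1535 and 449 CPM in Control. Uqcrfs1, the iron-sulfur protein of complex III, was at 976 CPM in the low cells, against 838 CPM in Control. For all of these genes the plates of the low cells overlapped those of Control.

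**Figure D5:**
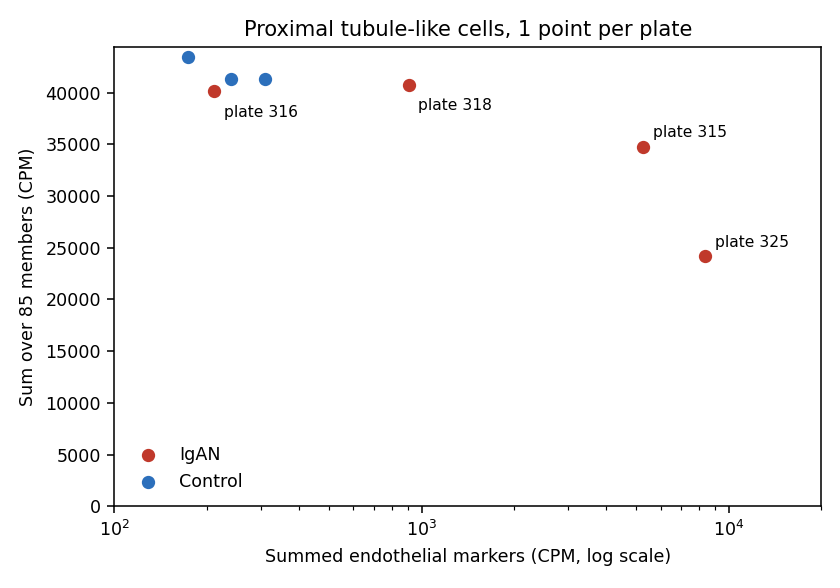
Proximal tubule-like cells: summed level of the 85 genes (CPM, from 0) against summed endothelial markers (CPM, log scale), 1 point per plate with at least 10 such cells. The IgAN plates 325 and 315, at 8387 and 5255 CPM of endothelial markers, have the lowest member levels, 24172 and 34778 CPM.

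Cox7a2l went the other way. It lies on chromosome 17 (83501918 to 83517330, minus strand). On the IgAN plates 315, 316, 318 and 325 it had 450, 371, 317 and 294 CPM. The Control plates 314, 317 and 321 had 243, 214 and 155 CPM. Every IgAN plate was above every Control plate. The pooled levels were 401 and 191 CPM, a log2 difference of 1.06, and it was the 1 of 79 members past the size rule toward higher values (6.9% of all genes). In the cells low in endothelial markers it stood at 504 and 191 CPM (log2 1.39, rule met), and the endothelial-like cells had 231 and 227 CPM. Together with its processed pseudogene Gm6969, whose reads can be shared with it, the sums were 426 and 204 CPM. The difference fell under 1 without plate 315 (0.93), 321 (0.83) or 322 (0.97), and Cox7a2l did not meet the rule by median of ratios or on plates 313 to 318 only.

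On the lower side the plates lay apart for 10 of 79 members, against 3.67% of all genes: Ndufa10, Ndufab1, Ndufa13 and Ndufv1 of complex I, Sdhb, the complex III core subunits Uqcrc1 and Uqcrc2, Cox5b, Ndufa4 and Atp5j. Ndufv1 had 471, 593, 556 and 193 CPM on the IgAN plates and 683, 839 and 805 CPM on the Control plates (log2 -0.92), and 634 CPM in the IgAN cells low in endothelial markers, where its plates overlapped. Sdhd (310 and 819 CPM, log2 -1.40) and Atp5sl (59.7 and 150 CPM, log2 -1.32) had larger negative differences and Atp5s (37.6 and 13.0 CPM, log2 1.47) a larger positive one, with overlapping plates. Of the related genes, Coq9, needed to make ubiquinone (191 and 479 CPM, log2 -1.32), and the complex I assembly factor Ndufaf1 (25.1 and 79.3 CPM, log2 -1.62) were lower past the size rule, as were 2.32% of all genes. Of 16 citrate cycle genes 14 were negative and of 10 electron carriers and exchangers 9, with medians of -0.56 and -0.42 over the same pooled cells, 65 of which carry endothelial markers.

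Immune classes had positive medians without single members past the size rule. In macrophage or dendritic-like cells 60 of 76 members were positive (median 0.29, all genes 0.06) and 0 met the rule, which 1.19% of all genes met. In T or NK cell-like cells 56 of 76 were positive (median 0.18), 0 met the rule, and 1.72% of all genes did. Plates overlapped in both. Without the cells whose Gm13340 share went against their group, the summed levels of IgAN and Control were 13844 and 12261 CPM in macrophage or dendritic-like cells (13812 and 12241 with them), and 15971 and 14661 CPM in the T or NK cell-like class (16119 and 14673 with them). Across the 4 main classes, 76 members were measured in all. The differences of Atp5a1, Ndufa9, Sdha and Sdhd were negative in every class, and those of Ndufa2, Ndufb7, Ndufs6 and Uqcr10 were positive in every class. The others differed in sign between classes. The share of all genes with the same sign in the 4 classes was not computed, so this count does not set these members apart.

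The subunits of the mitochondrial genome cannot be compared between the groups without their nuclear copies. mt-Co1, the catalytic subunit of complex IV, was lower past the size rule in the classes called podocyte-like (757 and 1549 CPM), proximal tubule-like (1197 and 3129 CPM) and T or NK cell-like (811 and 1806 CPM). The 12 table genes that share sequence with mitochondrial genes summed to 1736 CPM in IgAN and 10.6 CPM in Control podocyte-like cells, and to 1427 (plates 1285 to 1892) and 20.3 CPM (5.25 to 51.6) in endothelial-like cells. In the same order, mt-Co1 together with its 2 copies had 1752 and 1553 CPM, 2722 and 3177 CPM, and 1810 and 1820 CPM. In each of these classes the gap of mt-Co1 alone was thus larger than that of the sum, and reads of the gene and its copies cannot be told apart. The gap of mt-Co1 alone was not particular to these classes. Without meeting the size rule, it stood at 709 and 1376 CPM in endothelial-, 707 and 1399 in mesangial- and 564 and 1052 in macrophage or dendritic-like cells.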

How the data were processed

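The authors deposited a table of counts, whole numbers of reads per gene and cell with no normalization. Per the submitters' processing notes, build GRCm38 (mm10) was used with featureCounts of Subread 1.4.6-p5, SAMtools 0.1.18 and TopHat2 2.1.1. Annotation, strand setting and treatment of duplicate reads were not given in the sources used here, so overlapping and antisense genes are uncertain. Each cell is 1 labelled sample and groups follow the treatment label.

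The members and gene lists were chosen with earlier results of these data known, and several named values (motifs, promoters, copies, the split by endothelial markers) were picked after values were seen. All 3143 cells passed 10000 reads and 500 genes. Clusters came from 2000 variable genes without members and mitochondrial genes, 30 principal components, 15 neighbours and Leiden resolution 1 (scanpy 1.11.5, leidenalg 0.10.2, Python 3.11.15). A cluster took the class with the highest mean log2 fold of its markers, given at least 3 markers in 25% of its cells; 2 clusters stayed unnamed. No doublet caller was run; cells with markers of 2 classes (among them 38 of 39 IgAN and 142 of 146 Control podocyte-like cells) were left out in an alternative where enough cells remained. Reads were summed per class and group and scaled to CPM; RPKM used union exon lengths of GENCODE vM21 for 83 members. Copies share at least 100 words of 31 bases.

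Named were the isoform pairs and 9 core subunits (1 is not reported here), members past the size rule, the 5 highest by RPKM, the 5 with the widest range between classes, and the 3 largest differences in each direction per main class; of related lists those past the rule, some of which are not described. Alternatives covered cell filter, clustering, low filter, pseudocount, scaling, fold limit, plate minimum, 2 plate ranges and leaving out each plate. The comparison was run on simulated endothelial-like plates with planted changes. These plates shared their means otherwise, so calls that arise from differences between plates were not covered.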

Additional observations from a re-analysis of the deposited data

How the results depend on the processing

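The isoform shares and the ratios of tubule to endothelial-like cells kept their order in the alternatives run: Ndufa4l2 made up 50.1% to 67.7% of its pair in mesangial-like and 82.1% to 87.0% in smooth muscle or renin cell-like ones, and the summed members stood at 2.57 to 3.23 times (proximal) and 3.51 to 4.57 times (distal) the level of endothelial-like cells. The differences between IgAN and Control were less stable, and the cause was not tested. Leaving out each plate in turn gave member medians of 0.06 to 0.28 in endothelial-, -0.14 to 0.093 in mesangial-, -0.28 to -0.08 in podocyte- and -0.30 to -0.06 in proximal tubule-like cells; the mesangial median was negative without plate 315 (-0.14), 317 (-0.05) or 322 (-0.02) and by the mean of cell CPM (-0.034). The count past the size rule then ran from 0 to 0, 0 to 2, 1 to 3 and 0 to 2, while the share of all genes past it reached 2.31%, 6.75%, 19.9% and 19.4%. The median turned to -0.12 in endothelial cluster 0 (0.21 in cluster 5), to 0.066 in podocyte-like cells of plates 321 to 326 (6 IgAN cells, all genes -0.63), and in proximal tubule-like cells to 0.18 for cells with markers of 1 class and 0.13 for cells low in endothelial markers. It moved to -0.56 by median of ratios and to -0.48 on plates 321 to 326 in proximal tubule-like cells. In endothelial-like cells it was 0.43 on plates 321 to 326 and 0.07 on plates 313 to 318.

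The count past the size rule on plates 321 to 326 was 4 of 77 in endothelial-, 11 of 80 in mesangial- and 12 of 78 in proximal tubule-like cells, against 13.5%, 46.7% and 56.0% of all genes, with 1 or 2 plates a group. On plates 313 to 318 it was 1 (Ndufa4l2), 0 and 0 in mesangial-, podocyte- and proximal tubule-like cells, against 11.6%, 19.1% and 19.2%. In mesangial-like cells it was 2 by the mean of cell CPM (2.61% of all genes) and 1 without the cells whose Gm13340 share went against their group (2.83%). A fold limit of 1.5 gave 4 in podocyte- (15.1% of all genes) and 5 in proximal tubule-like cells (10.8%), where median of ratios gave 2 (Uqcrc1 and Ndufv1, lower, without Cox7a2l; 9.71%) and the mean of cell CPM 2 (9.18%). For IgAN against Control, cells with markers of 1 class were not compared in the mesangial- and podocyte-like classes, where too few were left. The size rule was not run on plates 321 to 326 for podocyte-like cells. The range of the mesangial Ndufa4l2 share includes this restriction, with only 3 IgAN and 9 Control cells left. In smooth muscle or renin cell-like cells none were left, so the range of that share comes from leaving out plates only. No paired analysis was possible because the labels name no animals and each plate holds 1 group.

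Without molecular identifiers, reads are not independent molecules. Endothelial clusters 0 and 5, the cells low in endothelial markers and the Gm13340 share were chosen after the data were seen.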

Other observations

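Across cells within a class, and as a description only since the genes share each cell's depth and total, the summed members followed the electron carriers and exchangers in proximal tubule-like cells (Spearman 0.77 over 238 cells) and the mitochondrial genome subunits in distal tubule or collecting duct-like cells (0.67 over 117 cells). The number of genes found per cell ran against the members in both classes (-0.56 and -0.53). Both classes hold cells that carry endothelial markers, and their part in these values was not tested. The positive values were the highest among classes with at least 40 cells. At the low end stood 0.04 for the carriers (B or plasma cell-like) and -0.21 for the mitochondrial genome subunits (podocyte-like). In mesangial-like cells the median level of Ndufa4l2 over cells with a read was 225 CPM in IgAN and 377 CPM in Control, and 61 of 160 cells had reads of Ndufa4l2 without Cox4i2, 4 the reverse and 18 both. Neutrophil-like cells had a summed member level 0.351 times that of endothelial-like cells, at a median of 131755 reads per cell. Their median log2 ratio was -1.97 over the 76 members compared and -2.76 over all genes, so the lower level was not particular to the members.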
